A study of Homo sapiens with 4 samples.

Results

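Aminoacyl-tRNA synthetases attach each amino acid to its transfer RNA, the step that supplies every ribosome with substrate. Human cells encode one set for the cytosol and a second, also in nuclear DNA, for the mitochondrial matrix. Many genes of the cytosolic set are known targets of ATF4, the transcription factor made when eIF2 kinases sense amino acid shortage or protein stress, whereas genes of the mitochondrial set are mostly not regarded as such targets. Levels of 35 synthetase mRNAs, 19 cytosolic (names ending in 1, FARSA and FARSB) and 16 mitochondrial (names ending in 2), are described here among 58735 gene identifiers. They were taken by name, with older names lacking the final 1 counted as the same gene, and each matched 1 identifier.

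The RNA came from wild-type cells under the name A549, a line derived from a human lung adenocarcinoma and grown in serum-containing medium, after staining for the adhesion molecule ICAM1 and cell sorting. The 2 ICAM1-High libraries came from the sorted subset with high ICAM1 and the 2 ICAM1-Low libraries from the subset with low ICAM1, with no other difference in treatment in the labels. Whether the replicates are separate cultures is not stated, and p-values rest on a spread between libraries that may be technical. Levels are counts scaled by library size and composition, per 1e6 counts (CPM), given in the order replicate 1 and replicate 2. Differences are log2 fold changes, positive where ICAM1-High was higher, with their standard error (SE), and a gene was called at an adjusted p under 0.05.

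The libraries held 16272591 to 17638647 counts, and ICAM1, the sorting marker, was at 116 and 110.4 CPM in ICAM1-High and 4.61 and 4.89 CPM in ICAM1-Low. The ICAM1-High libraries went against their cell line label at genes that A549 is known to lack. CDKN2A was at 54.1 and 66.1 CPM in ICAM1-High with 0 counts in both ICAM1-Low libraries, which allows up to 0.192 and 0.196 CPM (3 counts each), and MTAP at 24.6 and 25.2 CPM against 0.0640 and 0.522 CPM. Of 12 transcripts for which A549 is known as a rich source, 8 were lower and 2 higher in ICAM1-High, with a median log2 fold change of -0.55. Over all genes tested 29.4% were called lower and 30.4% higher. Among those averaging at least 50 CPM, as these 12 do, the shares were 49.7% and 28.3%. Fibroblast markers summed to 80.3 and 91.8 CPM in ICAM1-High and 48.2 and 51.8 CPM in ICAM1-Low, with 6 of 8 tested higher and 0 lower, of 14 listed, 5 of the 8 lying below 1 CPM in ICAM1-Low; POSTN and DPT had 0 counts in every library. Endothelial markers summed to 52.2 and 57.0 CPM against 37.1 and 40.4 CPM. Of 14 listed 6 were tested, with 4 higher and 1 lower, and 3 of the 6 lay below 1 CPM in ICAM1-Low. Most of the sums came from EGFL7, not called (25.5 and 26.2 CPM against 27.3 and 31.4 CPM), and, in ICAM1-High, ENG (15.2 and 18.8 CPM against 4.09 and 2.87 CPM). ERG was at 1.99 and 2.83 CPM in ICAM1-High with 0 counts in both ICAM1-Low libraries. CDH5 was at 1.99 and 1.47 CPM against 0 and 0.0652 CPM, and PECAM1 at 4.08 and 3.10 CPM against 0.895 and 0.782 CPM. ESAM, the lower one, was at 2.84 and 3.54 CPM against 4.67 and 4.89 CPM. VWF, KDR, TEK and TIE1 were at 0.272 CPM or less in every library, and FLT1 had 0 counts throughout. Leukocyte markers summed to 27.3 and 25.2 CPM against 19.4 and 19.8 CPM, with 2 of 14 tested, CD14 higher (0.98) and ITGAM lower (-0.50), and PTPRC, CD2, CD3D, CD3E and MS4A1 had 0 counts throughout. The part of these differences in the synthetase results was not tested. In such bulk libraries, fewer cells of a type and less RNA per cell cannot be told apart.

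Cytosolic synthetase mRNAs were lower in ICAM1-High, and mitochondrial ones showed no common direction. Of 19 cytosolic members, all abundant enough to test, 13 fell, 5 rose and 1 was not called, with a median log2 fold change of -0.65. Over all 16250 genes tested 59.7% were called, 29.4% lower and 30.4% higher, and the median was 0.01. All 19 average over 50 CPM, and among the 4414 genes averaging 50 CPM or more 49.7% were called lower and 28.3% higher, with a median of -0.13. The sizes stood further apart: 8 of 19 cytosolic members were called at least 2-fold lower, against 4.71% of all genes and 5.17% of those with at least 50 CPM. Of 16 mitochondrial members, all tested, 5 rose, 3 fell and 8 were not called, with a median of 0.03. Summed over the 19 genes, cytosolic synthetase mRNA stood at 3406 and 3414 CPM in ICAM1-High and 5874 and 5837 CPM in ICAM1-Low. The mitochondrial sum was 700.3 and 708 CPM against 703 and 707 CPM. With library size alone as scaling, which raised the median of all genes by 0.17, 9 mitochondrial members were called higher and 1 lower, at a median of 0.20.

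**Figure D1:**
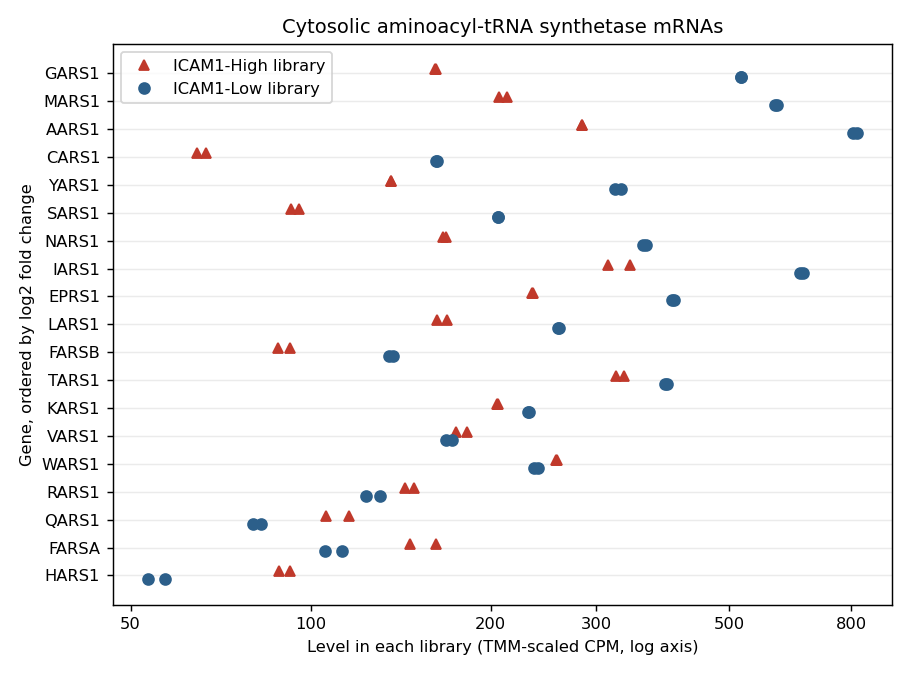
Level of each cytosolic synthetase mRNA (y axis, ordered by log2 fold change) in each library (x axis, TMM-scaled CPM, log scale), with triangles for the 2 ICAM1-High and circles for the 2 ICAM1-Low libraries. From GARS1 at the top to KARS1 the ICAM1-Low circles lie to the right, and from VARS1 to HARS1 the ICAM1-High triangles do.

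The falls with the smallest adjusted p were in the enzymes for glycine, alanine, methionine, tyrosine, asparagine and isoleucine. GARS1 (ENSG00000106105, chr7:30594681-30634033, GRCh38), which charges glycine in both cytosol and mitochondria, was at 162 and 161 CPM in ICAM1-High and 524 and 524 CPM in ICAM1-Low. It was 3.24-fold lower in ICAM1-High (log2 fold change -1.70, SE 0.04, adjusted p = 2.85e-45), and both ICAM1-High libraries lay far below both ICAM1-Low libraries. AARS1 (ENSG00000090861, chr16:70252295-70289543), the alanyl enzyme, was at 284 and 284 CPM against 818 and 804 CPM, 2.86-fold lower (-1.51, SE 0.04, adjusted p = 5.80e-44). It was the most abundant cytosolic synthetase by CPM in ICAM1-Low, and its ICAM1-High libraries were again the 2 low ones. MARS1 (ENSG00000166986, chr12:57475445-57517569) supplies both initiator and elongator methionyl-tRNA. Its level was 207 and 213 CPM against 602 and 597 CPM, 2.86-fold lower (-1.52, SE 0.04, adjusted p = 4.01e-43). The subsets were as well separated as for AARS1. MARS1 shares 355 exonic bases, 5.05% of its own, with DDIT3 on the opposite strand, and DDIT3 had 933 counts over the 4 libraries against 26342 for MARS1.

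YARS1 (ENSG00000134684, chr1:32775237-32818153), the tyrosyl enzyme, was at 136 and 136 CPM in ICAM1-High and 330.2 and 323 CPM in ICAM1-Low (-1.26, SE 0.05, adjusted p = 3.46e-36). NARS1 (ENSG00000134440, chr18:57600656-57622213), the asparaginyl enzyme, was at 168 and 167 CPM against 359 and 364 CPM (-1.11, SE 0.04, adjusted p = 7.54e-34). For both genes the 2 libraries of a subset nearly coincided and the subsets were more than 2-fold apart. IARS1 (ENSG00000196305, chr9:92210207-92293756), the isoleucyl enzyme, was at 341 and 313 CPM against 657 and 664 CPM (-1.01, SE 0.04, adjusted p = 3.96e-33). Its ICAM1-High libraries differed more from each other than those of the genes above, yet the subsets did not overlap. The cysteinyl enzyme CARS1 (-1.31) and the seryl enzyme SARS1 (-1.12), which also loads serine on the selenocysteine tRNA, completed the 8 members that fell at least 2-fold. Smaller falls were found for EPRS1 (-0.78), whose single chain charges both glutamate and proline, LARS1 (-0.65), the leucyl enzyme, TARS1 (-0.25), the threonyl enzyme, and KARS1 (-0.17), the lysyl enzyme of cytosol and mitochondria. SE of these 6 genes lay between 0.04 and 0.06. With library size alone as scaling TARS1 was not called (-0.08, adjusted p = 0.0764) and KARS1 stood at 0.0011 (adjusted p = 0.985).

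Phenylalanyl-tRNA synthetase is a tetramer of paired FARSA and FARSB subunits, and their mRNAs moved in opposite directions. FARSB, the beta subunit (ENSG00000116120, chr2:222570536-222656337), was at 92.4 and 88.1 CPM in ICAM1-High and 137 and 135 CPM in ICAM1-Low, and fell by 0.59 (SE 0.05, adjusted p = 1.55e-15). FARSA, the alpha subunit (ENSG00000179115, chr19:12922479-12934037), was at 147 and 162 CPM against 113 and 106 CPM, and rose by 0.50 (SE 0.05, adjusted p = 1.55e-12). Thus ICAM1-High libraries were the high ones for one subunit and the low ones for the other, with no overlap in either. Per kilobase of merged exons FARSA was at 60.2 and 66.6 CPM in ICAM1-High and 46.3 and 43.4 CPM in ICAM1-Low, and FARSB at 27.4 and 26.1 CPM against 40.8 and 40.1 CPM. The 2 mRNAs were thus closer per length in ICAM1-Low than in ICAM1-High, with FARSA the higher in every library.

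Of the other cytosolic members, 4 more rose. HARS1 (ENSG00000170445, chr5:140673904-140691862), the histidyl enzyme, was at 88.5 and 92.5 CPM in ICAM1-High and 57.1 and 53.5 CPM in ICAM1-Low, 1.64-fold higher (0.71, SE 0.06, adjusted p = 3.79e-16). QARS1, the glutaminyl enzyme, was at 106 and 116 CPM against 82.6 and 80.0 CPM (0.45, SE 0.06, adjusted p = 4.35e-10). RARS1, the arginyl enzyme, was at 149 and 144 CPM against 131 and 124 CPM (0.20, SE 0.05, adjusted p = 5.29e-04). All 3 were higher in both ICAM1-High libraries than in either ICAM1-Low library. Without ICAM1-Low replicate 2, RARS1 was not called (0.15, adjusted p = 0.0910). WARS1, the tryptophanyl enzyme, is known for its induction by interferon-gamma. It was at 258 and 257 CPM against 239.9 and 237 CPM, and rose by 0.11 (SE 0.04, adjusted p = 0.0222). This call was lost under 5 of 12 alternatives, where the adjusted p reached 0.280, among them the fits without ICAM1-Low replicate 1 or without ICAM1-Low replicate 2. VARS1, the valyl enzyme, was at 175 and 183 CPM against 168 and 172 CPM (0.07, SE 0.05, adjusted p = 0.203) and was not called. For every one of the 19 cytosolic genes the libraries of the subsets did not overlap, VARS1 included, which held for 78.3% of all genes tested.

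The falls were found mostly in the members written down as known ATF4 targets. That split was made from general knowledge and with earlier results of these data known, so it is a description. Of 13 such members 11 fell, 1 rose and 1 was not called, with a median log2 fold change of -1.11. All 8 falls of at least 2-fold were among them. Among all genes averaging 50 CPM or more, as the cytosolic members do, 49.7% were called lower and 28.3% higher. The other 6 cytosolic members, FARSA, FARSB, HARS1, KARS1, QARS1 and RARS1, had a median of 0.32, with 4 risen and 2 fallen. Summed levels were 2618 and 2607 CPM in ICAM1-High against 5123 and 5107 CPM in ICAM1-Low for the first group. For the other 6 they were 787.5 and 807 CPM against 752 and 729.5 CPM. The synthetase classes, which differ in the fold of the catalytic domain, did not part the members in this way. Cytosolic class I members had a median of -0.71 (6 of 10 fell, 3 rose) and cytosolic class II members one of -0.59 (7 of 9 fell, 2 rose).

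The element that ATF4 binds together with C/EBP proteins, the C/EBP-ATF response element, was searched as TGATGNAA on both strands. The windows were the RefSeq promoters (GRCh38.p14), running from 250 bases before to 50 bases after each annotated start. Of the 35 members 30 had a window, 16 of them cytosolic. The letters were found for 7 of these 16 cytosolic members, for 1 of 14 mitochondrial members, and for 2.80% of the 11505 tested genes with a window. With C at the open position, TGATGCAA was found for 6 cytosolic members and 0.75% of tested genes. The 8 matches are shown because 6 of the 8 largest falls carry one and because they lie at different distances from the start. Each line gives 30 bases on the gene's strand, 5′ to 3′, with the match in capitals (TTGCATCA is TGATGCAA read on the other strand). GARS1 alone has another base at the open position among the cytosolic members. The position of the match's first base counts the start as 1 and the base before it as -1.
AARS1: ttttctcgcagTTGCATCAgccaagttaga (chr16:70289675-70289704, minus strand, match from base -187)
GARS1: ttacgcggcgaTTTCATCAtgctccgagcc (chr7:30594834-30594863, plus strand, match from base -33)
IARS1: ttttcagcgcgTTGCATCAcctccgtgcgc (chr9:92293692-92293721, minus strand, match from base -13)
MARS1: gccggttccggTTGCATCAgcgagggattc (chr12:57488053-57488082, plus strand, match from base -4)
CARS1: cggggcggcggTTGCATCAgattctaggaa (chr11:3057407-3057436, minus strand, match from base -2)
TARS1: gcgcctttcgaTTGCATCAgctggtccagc (chr5:33440956-33440985, plus strand, match from base 3)
NARS1: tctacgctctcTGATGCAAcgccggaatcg (chr18:57621804-57621833, minus strand, match from base 15)
YARS2: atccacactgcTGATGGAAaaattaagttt (chr12:32756076-32756105, minus strand, match from base -197)
The cytosolic matches began between base -33 and base 15 except in AARS1. All 7 cytosolic members with the letters fell, at a median log2 fold change of -1.31 and a range from -1.70 (GARS1) to -0.25 (TARS1). The 9 cytosolic members whose windows lack them had a median of 0.11, with 4 lower and 5 higher, and SARS1 at -1.12 was the lowest of these. YARS2, the mitochondrial tyrosyl enzyme, carried a match and was at 0.04. Over all tested genes with a window, 43.5% of those with the letters and 30.9% of those without were called lower. YARS1, LARS1 and VARS1 had no window in the table. A match is a description of the letters, not evidence of binding, and the ATF4 targets were in part first recognised by this element.

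Genes of that pathway, both regulators and targets, were read in the same fit. Like the other lists below, this one was chosen with earlier results of these data known, so its counts are a description. Of 14 ATF4 pathway genes 14 were lower in ICAM1-High, with a median log2 fold change of -1.48, against 29.4% of all genes. ATF4 itself was at 311 and 328 CPM in ICAM1-High and 473 and 461 CPM in ICAM1-Low (-0.55, SE 0.04, adjusted p = 2.76e-19), although its activity is known to be set largely at translation. CEBPG, a binding partner of ATF4, was at 92.1 and 87.8 CPM against 332 and 336 CPM (-1.89, SE 0.05). TRIB3, a pseudokinase induced by ATF4, was at 112 and 115 CPM against 498 and 498 CPM (-2.13, SE 0.04). The libraries of the subsets did not overlap for any of the 14, against 78.3% of all genes tested without overlap. Of the eIF2 kinases and the GCN2 activator GCN1, 4 of 5 rose and 0 fell, against 30.4% of all genes called higher and 29.4% lower. EIF2AK4, which encodes GCN2, the kinase that senses uncharged tRNA, was at 55.3 and 56.1 CPM against 37.9 and 36.9 CPM (0.58, SE 0.07, adjusted p = 2.28e-10). GCN1 was the member not called (-0.01, SE 0.04).

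**Figure D2:**
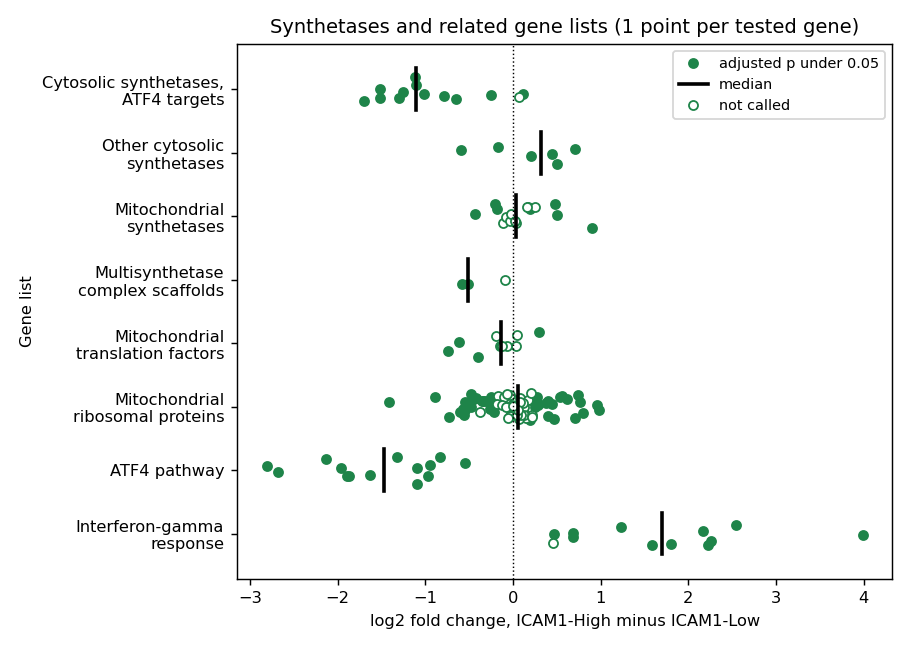
Log2 fold change of each tested gene (x axis, ICAM1-High minus ICAM1-Low) in 8 gene lists (y axis), with filled points for adjusted p under 0.05, open points for genes not called and a black bar for each list's median. Cytosolic ATF4 targets have their median at -1.11, the other cytosolic synthetases at 0.32 and the mitochondrial synthetases at 0.03.

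Interferon-gamma response genes were higher in the same libraries, with 11 of 12 tested rising and 0 falling at a median of 1.70, against 30.4% of all genes called higher and 29.4% lower. Both ICAM1-Low libraries averaged below 1 CPM for 2 of the 12. IRF1, a transcription factor of this response, was at 47.6 and 46.8 CPM in ICAM1-High and 34.8 and 33.3 CPM in ICAM1-Low (0.47, SE 0.08, adjusted p = 1.93e-07). WARS1 is on record as a target of both pathways. Its difference was 0.11, beside a median of 0.01 over all genes tested, and its call was lost under 5 of 12 alternatives. Its downstream RefSeq start is preceded by letters of both interferon elements, the GAS element (TTCNNNGAA, read the same way on both strands) and the ISRE (GAAA, any 2 bases, then GAAA, on either strand). That stretch is shown because WARS1 was the only member with both, in capitals, 5′ to 3′ on the minus strand at chr14:100375385-100375497 (GRCh38.p14).
WARS1: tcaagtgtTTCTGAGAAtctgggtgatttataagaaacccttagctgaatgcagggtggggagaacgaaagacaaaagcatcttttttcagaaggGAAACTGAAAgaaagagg
It runs from base -150 to base -38 before that start. GAS letters were found for 3 of 16 cytosolic and 2 of 14 mitochondrial members and 8.67% of tested genes. ISRE letters were found for 1 of 16 cytosolic members (WARS1), 1 of 14 mitochondrial members (EARS2) and 3.98% of tested genes. The counts are per gene and do not tell which start the WARS1 reads came from.

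Some of the cytosolic enzymes work in a multisynthetase complex held together by the scaffold proteins AIMP1, AIMP2 and AIMP3, the last encoded by EEF1E1. Of the 7 members in the complex, EPRS1, IARS1, KARS1, LARS1 and MARS1 fell and QARS1 and RARS1 rose, with a median of -0.65. The 12 cytosolic members outside it had a median of -0.85, with 8 lower and 3 higher. Among all genes averaging 50 CPM or more, 49.7% were called lower and 28.3% higher. Among the scaffolds, AIMP1 was at 49.6 and 47.2 CPM in ICAM1-High and 72.9 and 72.2 CPM in ICAM1-Low, and fell by 0.58 (SE 0.07, adjusted p = 5.09e-12). AIMP2 was at 62.2 and 66.1 CPM against 92.0 and 90.9 CPM, and fell by 0.51 (SE 0.06, adjusted p = 2.53e-11). Both had their ICAM1-High libraries below their ICAM1-Low libraries. EEF1E1 was at 13.1 and 12.5 CPM against 14.8 and 12.5 CPM (-0.09, SE 0.13, adjusted p = 0.550), and its libraries overlapped.

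Mitochondrial synthetases moved less and in both directions. AARS2 (ENSG00000124608, chr6:44299654-44313326), the alanyl enzyme, was at 24.1 and 28.5 CPM in ICAM1-High and 14.4 and 13.7 CPM in ICAM1-Low, 1.87-fold higher (0.90, SE 0.11, adjusted p = 2.70e-11). LARS2 (ENSG00000011376, chr3:45388506-45549421), the leucyl enzyme, was at 45.2 and 47.2 CPM against 31.1 and 34.0 CPM (0.50, SE 0.08, adjusted p = 7.14e-08). TARS2 (ENSG00000143374, chr1:150487364-150507609), the threonyl enzyme, was at 49.8 and 52.3 CPM against 37.4 and 35.9 CPM (0.48, SE 0.07, adjusted p = 7.39e-08). In these 3 genes both ICAM1-High libraries were the high ones. CARS2 (0.18, SE 0.08, adjusted p = 0.0423) and VARS2 (0.20, SE 0.09, adjusted p = 0.0492) were called near the threshold. Their calls were lost under 6 and 8 of 12 alternatives, among them the fits without either ICAM1-Low library. VARS2 shares 1858 exonic bases with GTF2H4 on the same strand.

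The enzymes for asparagine, isoleucine and histidine fell. NARS2 (ENSG00000137513, chr11:78435961-78574874) was at 27.7 and 27.8 CPM in ICAM1-High and 38.6 and 36.2 CPM in ICAM1-Low (-0.43, SE 0.08, adjusted p = 8.72e-06). IARS2 (ENSG00000067704, chr1:220094102-220148041), the most abundant mitochondrial member, was at 255 and 253 CPM against 283 and 296 CPM (-0.19, SE 0.04, adjusted p = 1.43e-04). HARS2 (ENSG00000112855, chr5:140691426-140699318) was at 45.7 and 46.9 CPM against 53.5 and 53.5 CPM (-0.21, SE 0.07, adjusted p = 0.00862). Each had both ICAM1-High libraries below both ICAM1-Low libraries, and with library size alone as scaling IARS2 (-0.01, adjusted p = 0.808) and HARS2 (-0.03, adjusted p = 0.694) were not called. HARS2 was not called either with DESeq2 (adjusted p = 0.0922), without ICAM1-Low replicate 1 (adjusted p = 0.0567) or without ICAM1-Low replicate 2 (adjusted p = 0.0540). HARS2 and HARS1 start head to head and share 437 exonic bases on opposite strands, 11.7% of those of HARS2 and 5.57% of those of HARS1. Without a stated strand setting, reads of the shared bases cannot be assigned to either gene.

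The other 8 mitochondrial members were not called. FARS2, the phenylalanyl enzyme, was at 12.4 and 12.3 CPM in ICAM1-High and 10.4 and 10.4 CPM in ICAM1-Low (0.26, SE 0.13, adjusted p = 0.0902). WARS2, the tryptophanyl enzyme, was at 13.6 and 13.8 CPM against 12.0 and 12.5 CPM (0.16, SE 0.12). Both had ICAM1-High libraries above ICAM1-Low libraries without reaching the threshold. MARS2, the methionyl enzyme, was at 24.9 and 25.1 CPM against 26.1 and 25.3 CPM (-0.04, SE 0.09). YARS2, which carries the mitochondrial match above, was at 30.9 and 32.4 CPM against 32.6 and 29.2 CPM (0.04, SE 0.09). RARS2, the arginyl enzyme, was at 21.9 and 20.3 CPM against 22.1 and 19.3 CPM (0.02, SE 0.10). YARS2 and RARS2 overlapped between subsets, and MARS2 differed by less than its SE. EARS2, which loads glutamate, also on the mitochondrial glutamine tRNA, was at 61.6 and 58.5 CPM against 61.7 and 60.3 CPM (-0.02, SE 0.07). PARS2, the prolyl enzyme, was at 7.30 and 7.08 CPM against 7.68 and 7.50 CPM (-0.08, SE 0.16). SARS2, the seryl enzyme, was at 6.55 and 7.51 CPM against 7.48 and 7.69 CPM (-0.11, SE 0.17). EARS2 and SARS2 overlapped between subsets, and 46.2% of the exonic bases of SARS2 also belong to another annotated gene on its strand, so its level is uncertain. Over the 16 mitochondrial members the libraries of the subsets did not overlap for 12, near the 78.3% of all genes tested.

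**Figure D3:**
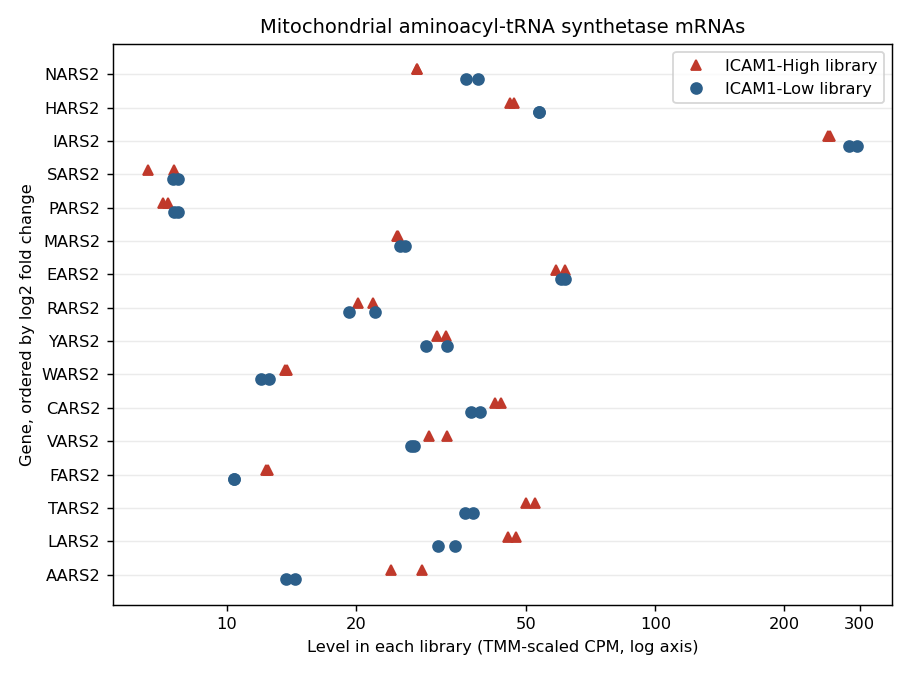
Level of each mitochondrial synthetase mRNA (y axis, ordered by log2 fold change) in each library (x axis, TMM-scaled CPM, log scale), with triangles for the 2 ICAM1-High and circles for the 2 ICAM1-Low libraries. Most pairs of symbols lie close together, with the widest gap at AARS2 in the bottom row.

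For 13 amino acids the members hold 1 cytosolic and 1 mitochondrial gene, which can be read side by side. In 11 of 13 the cytosolic log2 fold change lay below the mitochondrial one, and the exceptions were arginine and histidine. The widest gap was that of alanine, with AARS1 at -1.51 (SE 0.04) and AARS2 at 0.90 (SE 0.11). For methionine the cytosolic fall came without a mitochondrial rise, with MARS1 at -1.52 (SE 0.04) and MARS2 at -0.04 (SE 0.09). Cysteine had CARS1 at -1.31 (SE 0.06) and CARS2 at 0.18 (SE 0.08), called in opposite directions, CARS2 near the threshold. For leucine the 2 genes were called in opposite directions, LARS1 at -0.65 (SE 0.05) and LARS2 at 0.50 (SE 0.08). For threonine they were too, TARS1 at -0.25 (SE 0.04) and TARS2 at 0.48 (SE 0.07). A further threonyl-tRNA synthetase gene outside the 35, TARS3, was at 9.50 and 8.82 CPM in ICAM1-High and 4.67 and 6.13 CPM in ICAM1-Low (0.76, SE 0.17, adjusted p = 9.52e-05), and is named here after its values were seen. Asparagine and isoleucine were the amino acids with both genes lower. Histidine ran the other way, with HARS1 at 0.71 (SE 0.06) and HARS2 at -0.21 (SE 0.07). The differences between the genes of a pair were not tested.

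**Figure D4:**
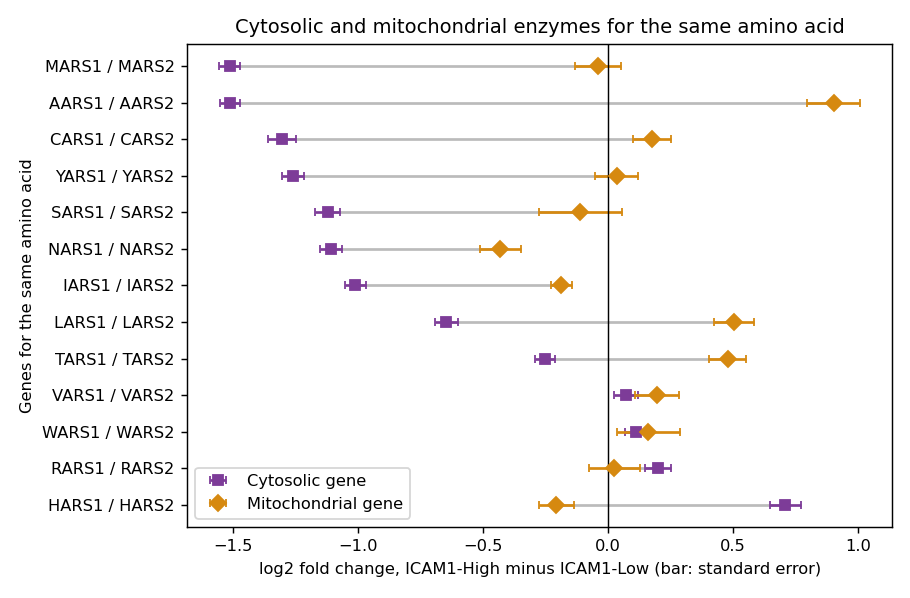
Log2 fold change (x axis, ICAM1-High minus ICAM1-Low, bars are standard errors) of the cytosolic (squares) and mitochondrial (diamonds) gene for each of 13 amino acids (y axis). The squares lie to the left of the diamonds in 11 pairs, from MARS1 at the top to WARS1, and to the right for RARS1 and HARS1.

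Levels of different genes were compared per kilobase of exons, merged over all annotated transcripts, which understates genes with long, little-used exons. In ICAM1-Low the highest were AARS1 at 182 and 179 CPM per kilobase and GARS1 at 126 and 126 CPM per kilobase. They were followed by IARS1 (88.7 and 89.7), NARS1 (87.7 and 89.0) and MARS1 (85.7 and 85.0), of which IARS1 and NARS1 overlapped. In ICAM1-High FARSA (60.2 and 66.6 CPM per kilobase), AARS1 (63.1 and 63.2) and IARS2 (61.3 and 60.8) led, and FARSA overlapped with each of the others. GARS1 was at 39.1 and 38.8 CPM per kilobase there, below TARS1 (56.7 and 58.5) and KARS1 (50.6 and 50.4). Apart from IARS2, mitochondrial members lay between 2.03 (SARS2) and 15.1 (YARS2) CPM per kilobase over the 4 libraries. The ratio of the alanyl pair per kilobase, AARS1 to AARS2, was 10.3 in ICAM1-High and 55.2 in ICAM1-Low, from the mean of 2 libraries each. That of the histidyl pair was 0.930 and 0.492, the lowest in ICAM1-Low among the 13.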

How the data were processed

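The deposited table holds whole-number read counts for each gene, unnormalised, in 1 column per library, and columns were tied to samples through the sample descriptions. FastQC 0.10.1 and GRCh38 are listed in the submitters' processing notes, and a SMARTer kit was used on mRNA, per the labels' protocols. What aligner, counter, annotation and strand setting were used, and how reads matching several genes were treated, is not given in the sources used here. All 58735 identifiers occur in GENCODE release 29, which gave positions and exon lengths, and a name table gave symbols for 58207.

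All genes were fitted together in edgeR 4.0.16 (R 4.3.3) with the quasi-likelihood test, robust estimation, TMM scaling (factors 0.940 to 1.065) and the default filter (minimum count 10, minimum total 15), and p-values were adjusted by Benjamini-Hochberg over 16250 genes. The coefficient of variation between libraries was 3.64% (common dispersion 0.00133), and libraries of one subset differed by more than sampling noise (chi-square per degree of freedom 2.88 and 1.82). The fit was also run on simulated counts in which few genes changed, equally up and down, so the scaling was not tested. There 48% of 50 genes changed 1.25-fold and 90% of 50 changed 2-fold were recovered, and 2.44% of calls were false. Alternatives were DESeq2 1.42.0, limma 3.58.1 (voom), other scalings, filters and thresholds, the replicate number as a block, and omission of each library. The members and lists were chosen with earlier results of these data known. Named with every library's value were, in each set, the 6 called members with the smallest adjusted p, those called against the set's majority direction and those not called, and from related lists up to 4 members with the smallest adjusted p, plus ATF4, EIF2AK4, AIMP1, AIMP2, EEF1E1, IRF1 and ICAM1; 1 further gene of that rule is not reported here. The A549, fibroblast, endothelial and leukocyte markers were lists of 12, 14, 14 and 14 genes. Motif letters were counted in the 39 promoter windows of 30 members.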

Additional observations from a re-analysis of the deposited data

How the results depend on the processing

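The count of 13 lower cytosolic members held under every alternative run except library size alone, which gave 11. The median log2 fold change of all 19 cytosolic members was -0.47 with library size alone, a scaling that raised the median of all genes by 0.17. The cytosolic median ranged from -0.68 to -0.62 when 1 library was left out. The 5 higher cytosolic members became 6 with library size alone, and 4 with no filter, with DESeq2 or at an adjusted p under 0.01. They were fewest without ICAM1-Low replicate 2. The 5 higher mitochondrial members became 9 with library size alone, 3 with no filter, 3 with DESeq2, 3 at an adjusted p under 0.01, and 3 to 4 with 1 library left out; the 3 lower ones became 1 with library size alone and 2 to 3 with 1 library left out. The mitochondrial median was 0.20 with library size alone and -0.049 to 0.11 with 1 library left out, the negative value being that without ICAM1-Low replicate 2. With library size alone the sign turned for KARS1 (0.0011), EARS2 (0.15), MARS2 (0.13), PARS2 (0.10) and SARS2 (0.063). It also turned for EARS2 with genes of at least 1 CPM in each subset (0.0033). With 1 library left out it turned for EARS2 (-0.066 to 0.011, positive without ICAM1-High replicate 2), for RARS2 (-0.080 to 0.12, negative without ICAM1-High replicate 1 or ICAM1-Low replicate 2) and for YARS2 (-0.051 to 0.11, negative without ICAM1-High replicate 2 or ICAM1-Low replicate 2); of these genes KARS1 alone was called in the reported fit. The share of calls that were higher was 68.3% with library size alone against 50.8%, and DESeq2 called 3483 genes higher and 3532 lower. With the replicate number as a block the 4 counts were 13, 5, 3 and 5 again and the medians -0.65 and 0.03, and no member's call changed; same-numbered libraries had deviations correlated at 0.0445 over genes, and the labels tie them by number only. The cause of these changes was not tested. Mitochondrial members have fewer counts and larger standard errors (0.04 to 0.17 against 0.04 to 0.06), so small differences among them were less detectable at this depth.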

Other observations

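In a list of 16 genes of tRNA processing, export and quality control, which also holds the synthetase gene TARS3, 5 were higher and 6 lower in ICAM1-High, with a median log2 fold change of 0.002. These counts lie near the shares of all genes, 30.4% higher and 29.4% lower, and say nothing particular of the list. XPOT, which exports tRNA from the nucleus, was at 241 and 249 CPM in ICAM1-High and 451 and 446 CPM in ICAM1-Low (-0.87, SE 0.04, adjusted p = 3.22e-29). DTD1, which removes wrongly loaded D-amino acids from tRNA, was at 13.7 and 14.2 CPM against 27.6 and 29.3 CPM (-1.03, SE 0.10). TRNT1, which adds the CCA end to tRNA, was at 37.8 and 34.2 CPM against 58.3 and 56.3 CPM (-0.67, SE 0.07). These 3 had both ICAM1-High libraries below both ICAM1-Low libraries. NSUN2, a tRNA methyltransferase, ran the other way at 248 and 256 CPM against 167 and 162 CPM (0.61, SE 0.05). Of 5 elongation factor genes tested, EEF2 (0.41) and EEF1D (0.16) rose and 3 fell, among them EEF1A1 (-0.29) and EEF1B2 (-0.18), with SE between 0.04 and 0.05. All 5 average over 50 CPM, a level at which 49.7% of genes tested were called lower and 28.3% higher. EEF1G, a further subunit of elongation factor eEF1 and named here after its counts were seen, is listed at 0 in every library, and 99.9% of its exonic bases also belong to another annotated gene on its strand, which had 127 counts in all.

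Of 76 mitochondrial ribosomal protein genes tested 23 were higher and 21 lower, with a median of 0.05, which is near the shares of all genes (30.4% and 29.4%). MRPS16, a small-subunit protein, was at 104 and 106 CPM in ICAM1-High and 172 and 176 CPM in ICAM1-Low (-0.73, SE 0.05, adjusted p = 9.59e-21). MRPL23, a large-subunit protein, was at 12.5 and 16.4 CPM against 40.4 and 36.6 CPM (-1.41, SE 0.10, adjusted p = 2.26e-19). MRPL3 ran the other way at 138 and 136 CPM against 87.3 and 90.6 CPM (0.62, SE 0.05, adjusted p = 2.72e-16). Among translation factors 1 of 10 was higher and 4 lower (median -0.14), with MTIF2, the initiation factor, at -0.61 (SE 0.06) and TUFM, the elongation factor, at -0.15 (SE 0.04). Among 11 genes that assist mitochondrial tRNA charging 4 were higher and 3 lower (median 0.07), with GTPBP3 the highest at 0.75 (SE 0.09). Of the 3 subunits of the amidotransferase that completes glutaminyl-tRNA from the product of EARS2, QRSL1 fell by 0.33 (SE 0.09, adjusted p = 0.00195), and GATB (0.16, SE 0.11) and GATC (-0.002, SE 0.09) were not called, the last pair being named after their values were seen.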
